A study of Homo sapiens with 12 samples.

Results

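Transcript levels of 42 DNA repair and checkpoint genes were followed in HL-60 cells, a human acute myeloid leukaemia line of promyelocytic type, after 3 h of drug exposure. The genes were chosen by name, from known roles in 8 repair and checkpoint pathways, with earlier results of these data known. They are 42 of the 58233 genes in the expression table. HL-60 cells labelled wild type were grown in RPMI with 10% FCS and fell into 4 groups of 3 libraries. They were left untreated, given 100 nM all-trans retinoic acid (ATRA, a vitamin A derivative that drives leukaemic promyelocytes towards differentiation), given 500 nM palbociclib (an inhibitor of the cyclin-dependent kinases CDK4 and CDK6), or given both. The untreated group is labelled only as untreated, with no mention of a vehicle. All 12 libraries come from a single cell line. The labels do not say whether replicates were separate cultures, so that p-values measure only the spread between these libraries, which may be technical.

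DNA repair is shared among pathways that recognise different lesions. Homologous recombination copies an intact sister chromatid, the Fanconi anaemia pathway removes links between the strands, mismatch repair corrects copying errors, base excision removes damaged bases, nucleotide excision removes bulky lesions and end joining reseals broken ends. The kinases ATM and ATR pass the presence of damage on to CHEK2 and CHEK1, which hold the cell cycle. Many of these genes are known to be transcribed mostly in late G1 and S phase under E2F factors, which the retinoblastoma protein holds back until CDK4 and CDK6 phosphorylate it.

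Expression was given as RPKM (read density scaled to gene length and library size, and so comparable between genes) rounded to whole numbers, and library sums ran from 358455 to 390247 RPKM. Read totals are not in the table. The study's methods give an average read number per sample with its spread, but the depth of each single library is unknown. Of the 42 genes, 28 had a mean of at least 5 RPKM over the 12 libraries and entered the test, with 7055 genes tested in all. A gene was called when the Benjamini-Hochberg adjusted p of limma over all 7055 genes was under 0.05, and "rose" and "fell" are used only of called genes. The myeloid markers of the line were present apart from ELANE, with MPO at 1077 to 1579 RPKM and ELANE at 0 to 1 RPKM, and the summed level of the 7 markers was 1546 to 1772 RPKM untreated, 1383 to 1581 with ATRA, 1695 to 1931 with palbociclib and 1400 to 1659 with both. All 10 markers of other cell types were listed at 0 in every library. In bulk RNA, fewer cells that express a gene and less RNA per cell cannot be told apart.

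One feature of the libraries touched long genes. In the treated libraries numbered 1, genes with over 8 kb of annotated exon lay 0.114 to 0.136 below their mean over all libraries on the log2 scale, and genes under 2 kb lay 0.136 to 0.151 above it. In the other 6 treated libraries the long genes lay 0.00817 to 0.078 above, and in the 3 untreated libraries 0.0323 to 0.0779 above. The titles do not say whether untreated and treated libraries were handled together. An offset shared by the untreated libraries would enter every comparison with them and was not tested. For several comparisons, results are therefore also given without the 3 treated libraries numbered 1, an alternative added after the data were seen.

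**Figure D1:**
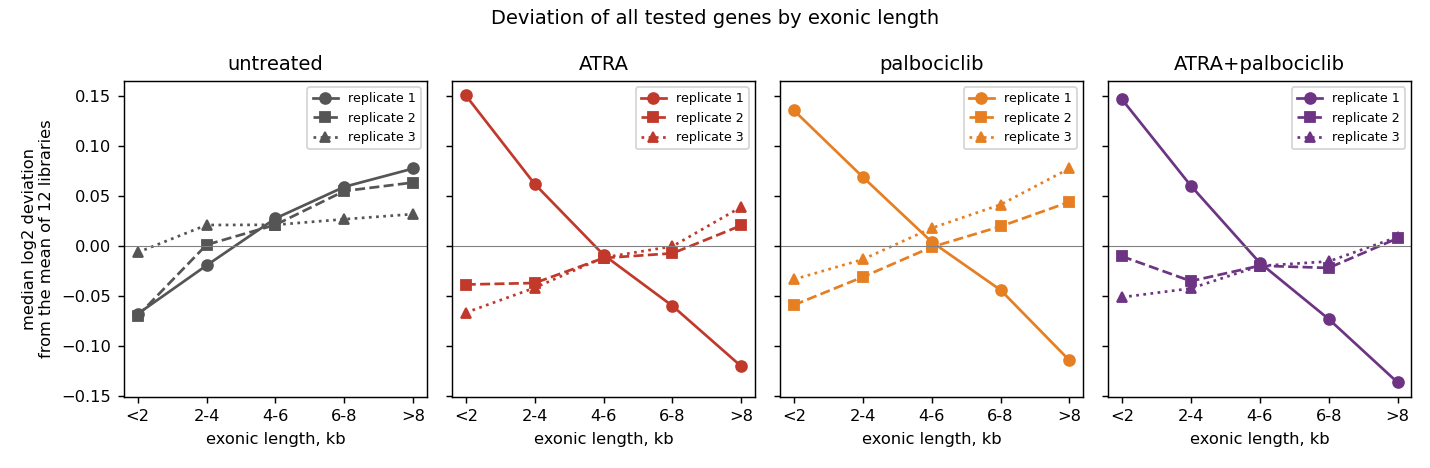
Median deviation of tested genes from their mean over all 12 libraries (log2 scale, vertical axis) by class of annotated exonic length (horizontal axis, kb), with 1 line per library and the 4 treatments marked apart. The 3 treated libraries numbered 1 slope downwards, to between -0.136 and -0.114 for genes over 8 kb, and the other 9 do not.

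In untreated cells 3 of the 4 end-joining genes, XRCC6, XRCC5 and PRKDC, were the most abundant of the 42, and the other, LIG4, stood at 6 RPKM. XRCC6 (Ku70, which with Ku80 binds DNA ends) stood at 284 ± 6.51 RPKM (mean ± SD, n = 3 here and below) and XRCC5 (Ku80) at 146 ± 1.53 RPKM. PRKDC, the catalytic subunit of the DNA-dependent protein kinase recruited by Ku, followed at 60.3 ± 2.52 RPKM and USP1, the deubiquitinase that removes ubiquitin from FANCD2 and PCNA, at 49.7 ± 2.52 RPKM. UNG (uracil-DNA glycosylase) stood at 44.3 ± 2.08 RPKM, below USP1 with no overlap between the libraries. The next in order, NEIL3 (a glycosylase for oxidised bases) at 24.0 ± 1.00 and RAD51AP1 (a recombination accessory protein) at 24.0 ± 2.65 RPKM, did not differ beyond their spread. At the other end, 14 genes averaged under 5 RPKM over all 12 libraries and ATRIP, the partner of ATR, was listed at 0 in all 12 libraries. Of the annotated exonic bases of ATRIP, 26.7% overlap other genes on the same strand, among them TREX1. Reads there may not be separable, so the value of ATRIP is uncertain.

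Palbociclib for 3 h was compared with no treatment to ask which repair genes respond to CDK4/6 inhibition alone. MSH6 (a subunit of the mismatch-recognition complex MutSalpha), UNG, the nuclease EXO1 and USP1 fell most, and CHEK1, RAD54L, FANCL, RAD51AP1, BLM, FANCG and FANCI fell less. In all, 11 of the 28 tested genes (39.3%) fell and 0 rose, against 3.1% of all tested genes lower and 0.879% higher. Because the list was chosen with earlier results of these data known, such shares, here and below, are descriptions and not an independent test. The median log2 fold change of the 28 was -0.34, and that of all tested genes was 0. Log2 fold changes are on the log2(RPKM + 0.1) scale throughout.

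MSH6 read 18, 16 and 18 RPKM untreated, 10, 9 and 11 with ATRA, 7, 6 and 6 with palbociclib and 6, 5 and 5 with both. Every treated library lay below every untreated one, and only the palbociclib and combination libraries overlapped. The fall with palbociclib was -1.44 (SE 0.10, adjusted p = 6.27e-05), to 36.5% of the untreated mean. MSH6 lies at chr2:47695530-47810063 on the plus strand (GRCh38, GENCODE v44). Of its annotated exonic bases, 24.2% overlap genes on the other strand, among them FBXO11. The sources used here do not state the strand setting beyond defaults, so reads of MSH6 and of such genes may not be separable there.

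UNG, which starts the repair of uracil in DNA (chr12:109097597-109126725, plus strand), read 46, 42 and 45 RPKM untreated, 33, 27 and 27 with ATRA, 25, 20 and 16 with palbociclib and 22, 17 and 14 with both. The 4 groups fell in that order, with overlap only between palbociclib and the combination. UNG fell by 1.14 with palbociclib (SE 0.18, adjusted p = 0.00531).

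EXO1, a nuclease of mismatch repair and of end resection (chr1:241847967-241895148, plus strand), read 17, 17 and 16 RPKM untreated, 11, 13 and 12 with ATRA, 8, 9 and 8 with palbociclib and 9, 10 and 8 with both. No palbociclib library reached an untreated or ATRA one (log2 fold change -0.99, SE 0.09, adjusted p = 0.000253). USP1 (chr1:62436297-62451804, plus strand) read 52, 50 and 47 RPKM untreated, 36, 39 and 36 with ATRA, 29, 31 and 26 with palbociclib and 30, 30 and 26 with both. Its groups were separate apart from palbociclib and the combination, which had the same mean of 28.7 RPKM, and its log2 fold change with palbociclib was -0.79 (SE 0.08, adjusted p = 0.000368). CHEK1, the kinase that ATR activates when replication stalls (chr11:125625163-125676255, plus strand), read 13, 13 and 11 RPKM untreated, 10, 10 and 9 with ATRA, 7, 8 and 7 with palbociclib and 8, 8 and 7 with both. The drop in CHEK1 was -0.74 with palbociclib (SE 0.09, adjusted p = 0.00149), with no palbociclib library reaching an untreated or ATRA one. Its exons overlap other genes on the opposite strand over 13.4% of their bases.

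**Figure D2:**
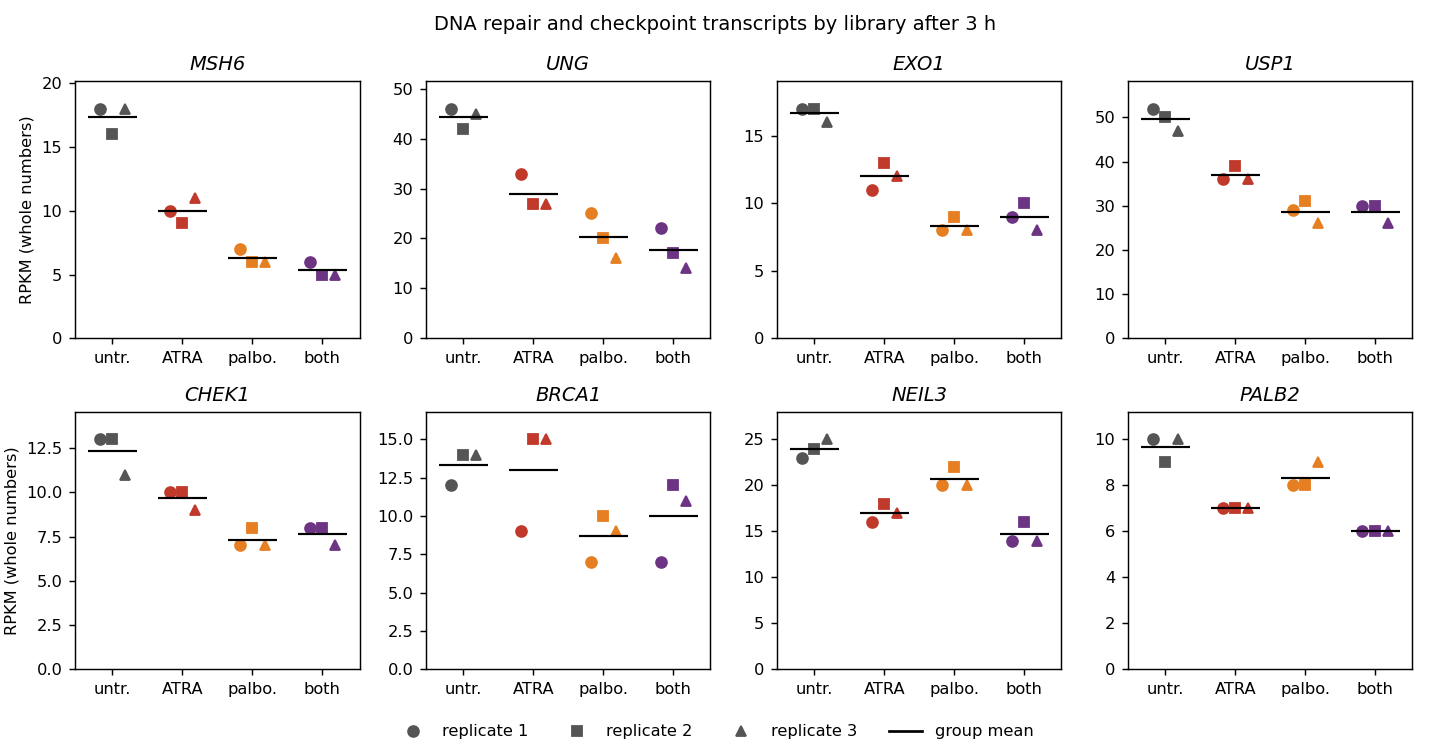
RPKM (vertical axis, linear, from 0) of 8 genes in each library, grouped by treatment, with each point 1 library and the black bar the mean of 3. MSH6, UNG, EXO1, USP1 and CHEK1 step down from untreated to ATRA to palbociclib, while NEIL3 and PALB2 lie lower with ATRA than with palbociclib.

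Among the other recombination genes, RAD54L (a motor protein that works with the recombinase) read 10, 11 and 9 RPKM untreated and 7, 7 and 6 with palbociclib, a change of -0.58 (SE 0.10, adjusted p = 0.00963). BLM, the Bloom syndrome helicase, read 17, 17 and 16 untreated and 11, 13 and 11 with palbociclib (-0.51, SE 0.07, adjusted p = 0.00349). RAD51AP1 read 23, 27 and 22 RPKM untreated and 15, 19 and 15 with palbociclib (-0.56, SE 0.11, adjusted p = 0.0177). In all 3 genes the highest palbociclib library stayed below the lowest untreated one.

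Of the Fanconi anaemia genes, FANCL, the ubiquitin ligase subunit of the core complex, read 8, 8 and 11 RPKM untreated and 6 in each palbociclib library (-0.56, SE 0.13, adjusted p = 0.0370). FANCG, another core complex subunit, read 10, 11 and 11 against 8, 8 and 7 (-0.47, SE 0.08, adjusted p = 0.00836). FANCI, which with FANCD2 is the ubiquitinated substrate of that complex, read 21, 22 and 21 against 15, 18 and 16 (-0.39, SE 0.09, adjusted p = 0.0424). The groups did not overlap in any of the 3. At values this low, 1 unit of rounding is a large step, and under other settings of the fit the call held for FANCL in 9 of 24 and for FANCI in 13 of 25. The calls of MSH6, UNG, EXO1, USP1, CHEK1 and BLM held in every setting tried at the same threshold.

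BRCA1, which has a role in end resection and in loading the recombinase (chr17:43044295-43170245, minus strand, with 14.16 kb of annotated exon), read 12, 14 and 14 RPKM untreated, 9, 15 and 15 with ATRA, 7, 10 and 9 with palbociclib and 7, 12 and 11 with both. The first library of each treated group was the lowest of its group. The log2 change with palbociclib was -0.63 (SE 0.24) and was not called (adjusted p = 0.183). Without the 3 treated libraries numbered 1 it was -0.48 (SE 0.09) with adjusted p = 0.0276, while RAD51AP1 and FANCL then missed the threshold (adjusted p = 0.0776 and 0.0793), leaving 10 called genes.

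ATRA for 3 h was then compared with the same untreated libraries, so the following values share controls with those for palbociclib. ATRA lowered 10 of the 28 genes (35.7%) and raised 0, against 11.7% lower and 8.31% higher among all tested genes, and the median of the 28 was -0.22 (-0.01 for all tested genes). MSH6 again changed most, by -0.79 (SE 0.10, adjusted p = 0.000395), followed by UNG at -0.62 (SE 0.18, adjusted p = 0.0325). EXO1 fell by 0.47 (adjusted p = 0.00443), USP1 by 0.42 (adjusted p = 0.00393) and CHEK1 by 0.35 (adjusted p = 0.0236). With FANCL (-0.49, adjusted p = 0.0207), these made 6 genes called lower with each drug alone. Under other settings of the fit the ATRA call held for UNG in 18 of 25, for FANCL in 18 of 24 and for CHEK1 in 20 of 24. For MSH6, EXO1 and USP1 it held in every setting tried at the same threshold. Without the treated libraries numbered 1, CHEK1 stood at adjusted p = 0.0442 and FANCL at 0.0351.

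A further 4 genes were called with ATRA and not with palbociclib. NEIL3, which also unhooks strand crosslinks (chr4:177309874-177362936, plus strand), read 23, 24 and 25 RPKM untreated, 16, 18 and 17 with ATRA, 20, 22 and 20 with palbociclib and 14, 16 and 14 with both. It fell by 0.50 with ATRA (SE 0.07, adjusted p = 0.000821) and its change with palbociclib was -0.22 (SE 0.07, adjusted p = 0.137). PALB2, the bridge between BRCA1 and BRCA2 (chr16:23603160-23641321, minus strand), read 10, 9 and 10 RPKM untreated, 7 in each ATRA library, 8, 8 and 9 with palbociclib and 6 in each library given both. The fall with ATRA was -0.46 (SE 0.07, adjusted p = 0.000887) and the change with palbociclib -0.21 (SE 0.07, adjusted p = 0.118). Libraries with ATRA, alone or combined, lay below all libraries without it for PALB2 and for NEIL3.

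The other 2 genes were RAD18 and LIG4. RAD18, a ubiquitin ligase that acts on PCNA at stalled forks, read 7, 8 and 7 RPKM untreated, 5, 6 and 5 with ATRA, 5, 6 and 5 with palbociclib and 4, 5 and 5 with both. Its log2 change was -0.45 with each drug (adjusted p = 0.0222 with ATRA and 0.0638 with palbociclib), and the difference between the drugs was 0.00 (95% confidence interval -0.27 to 0.27). LIG4, the ligase of end joining, read 6 RPKM in each untreated library and 4, 5 and 5 with ATRA (-0.36, SE 0.10, adjusted p = 0.0289). Under other settings of the fit the ATRA call held for RAD18 in 21 of 24 and for LIG4 in 17 of 24.

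Because the calls above come from each drug against shared controls, palbociclib was also compared directly with ATRA, a comparison added after the values were seen. Here 2 genes were higher and 7 lower with palbociclib, against 5.19% higher and 6.08% lower among all tested genes. NEIL3 (0.28, SE 0.07, adjusted p = 0.0312) and PALB2 (0.25, SE 0.07, adjusted p = 0.0422) were the higher ones. The lower ones were MSH6 (-0.65, adjusted p = 0.00205), EXO1 (-0.52, adjusted p = 0.00380), RAD51AP1 (-0.43, adjusted p = 0.0253), FANCG (-0.43, adjusted p = 0.00558), CHEK1 (-0.40, adjusted p = 0.0189), USP1 (-0.37, adjusted p = 0.0128) and BLM (-0.30, adjusted p = 0.0245). With the replicate number as a block, 3 genes were higher and 13 lower, against 12% and 10.6% of all tested genes. Without the treated libraries numbered 1 there were 1 higher and 6 lower, and PALB2 and NEIL3 then stood at adjusted p = 0.0569 and 0.0872.

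The combination was compared with no treatment, again with the same controls. It lowered 14 of the 28 genes and raised 0, against 17.8% lower and 12.3% higher among all tested genes, with a median of -0.35 (-0.01 for all tested genes). MSH6 stood at 30.8% of its untreated mean (log2 fold change -1.69, SE 0.10, adjusted p = 1.51e-06) and UNG at 39.9% (-1.35, SE 0.18, adjusted p = 0.000251). EXO1 (-0.89), USP1 (-0.79), NEIL3 (-0.71), CHEK1 (-0.68), PALB2 (-0.68), FANCL (-0.65), RAD18 (-0.65), RAD54L (-0.58), BLM (-0.43), FANCI (-0.36) and FANCG (-0.35) also fell, with adjusted p between 4.57e-05 and 0.0137. PMS1, a MutL homologue, was called only in this comparison among the 3 against untreated. It read 7, 7 and 8 RPKM untreated, 5, 6 and 6 with ATRA, 5, 6 and 6 with palbociclib and 4, 5 and 6 with both (-0.56, SE 0.14, adjusted p = 0.0134). LIG4 (-0.26, adjusted p = 0.0807) and RAD51AP1 (-0.28, adjusted p = 0.0740) were called with 1 drug alone and not with both. Without the 3 treated libraries numbered 1, 18 genes were lower and 1 higher, the latter being ERCC1 at 0.18 (adjusted p = 0.0283).

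**Figure D3:**
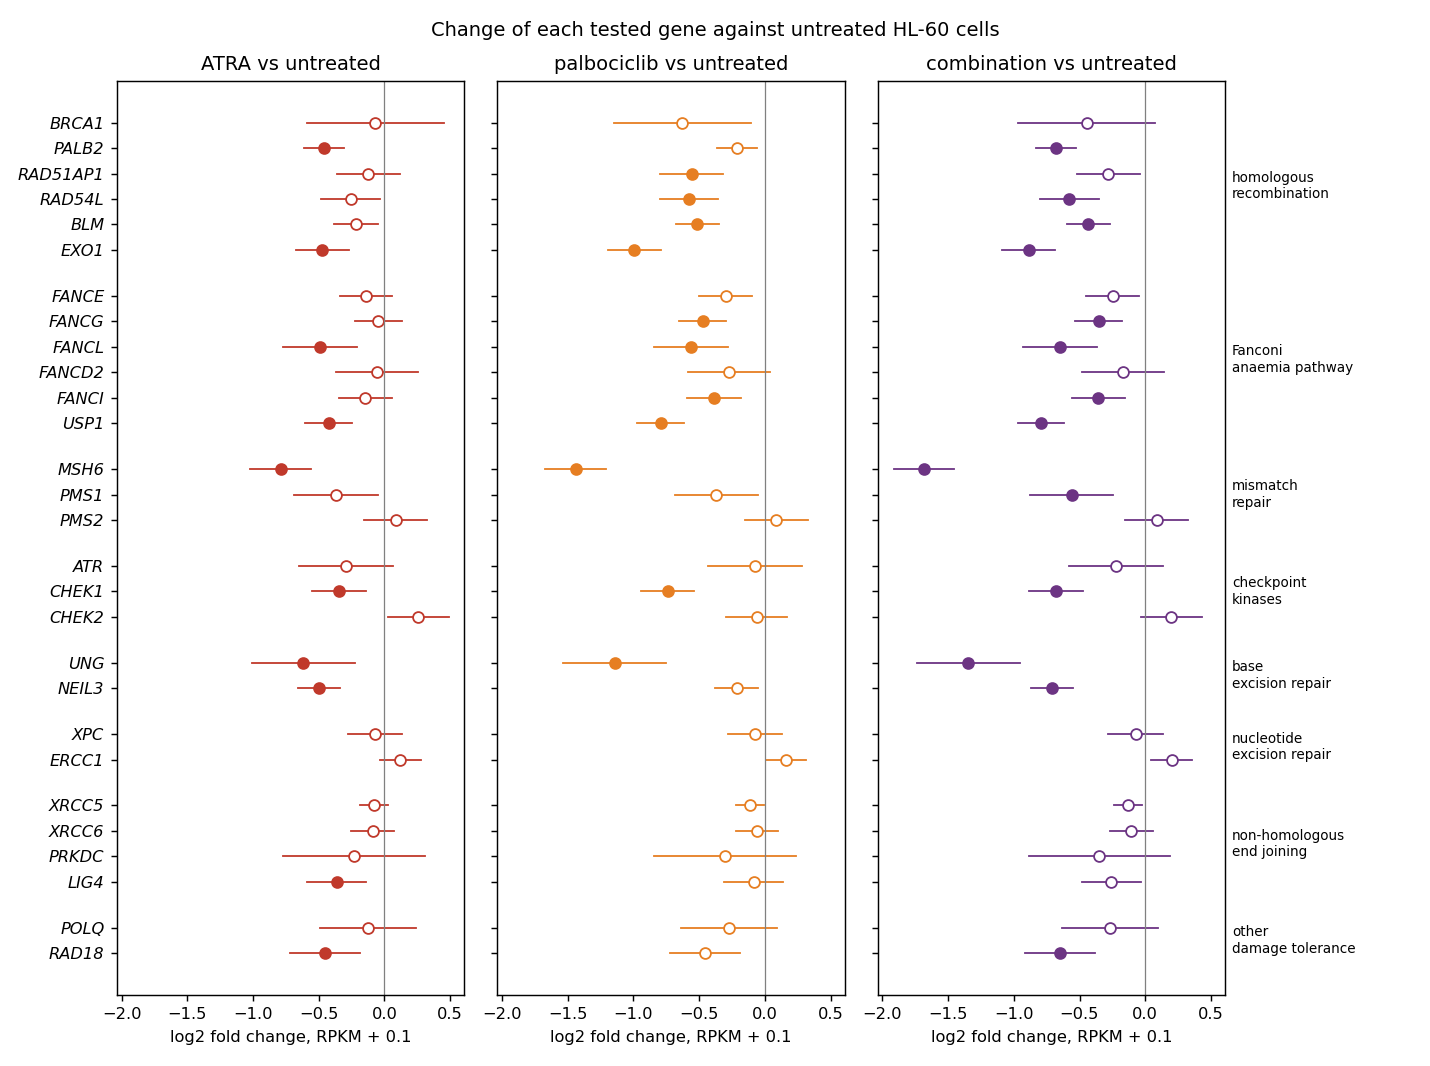
Log2 fold change against untreated cells (horizontal axis) of the 28 tested genes for ATRA, palbociclib and both, with points the estimate, bars the 95% confidence interval of limma, filled points called and open points not called. MSH6 lies lowest in all 3 panels, at -0.79, -1.44 and -1.69, and no gene is called above 0.

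A pair of comparisons that share no library ask what palbociclib did without and with ATRA, the first being palbociclib against untreated and the second the combination against ATRA. In the main fit, without pairing, palbociclib on top of ATRA lowered MSH6 alone of the 28 (-0.89, SE 0.10, adjusted p = 0.00689). It raised 0 of the 28, and among all tested genes 0.113% were lower and 0% higher. The largest changes after MSH6 were UNG (-0.73, adjusted p = 0.292), EXO1 (-0.41, adjusted p = 0.220), BRCA1 (-0.37, adjusted p = 1), USP1 (-0.37, adjusted p = 0.216) and CHEK1 (-0.33, adjusted p = 0.484). At an unadjusted p under 0.05, 11 genes were lower and 0 higher, beside 3.03% lower and 0.51% higher among all tested genes. The replicate block was fitted over all 12 libraries, including the untreated ones, whose numbers were not taken to pair. With it, MSH6, UNG, EXO1, USP1 and CHEK1 were called and BRCA1 was not (adjusted p = 0.246). Among all tested genes 0.709% were then lower and 0.0142% higher. With a block on treated libraries only, more of the 28 were called, as counted in the last section. The call of MSH6 was lost when the third ATRA or the third combination library was left out.

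**Figure D4:**
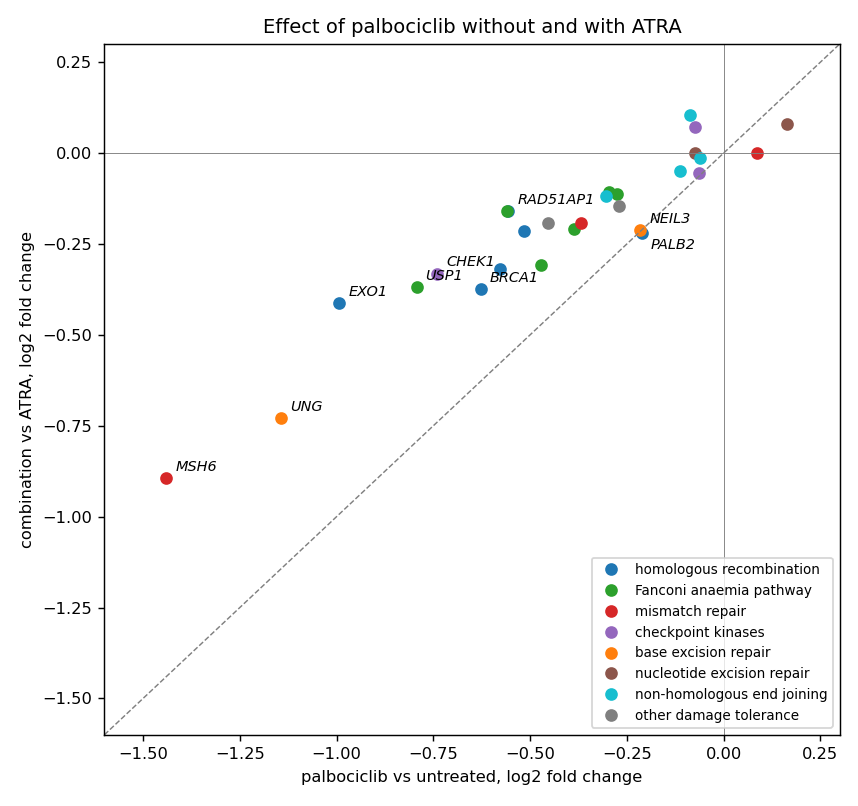
Log2 fold change of palbociclib against untreated (horizontal axis) and of the combination against ATRA (vertical axis) for the 28 tested genes, 1 point per gene, with the dashed line where both effects are equal. MSH6, at -1.44 and -0.89, and most genes with a large fall lie above the line.

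Whether the 2 drugs added up was tested as the departure from additivity on the log2 scale, that is, the palbociclib effect with ATRA minus that without. None of the 28 was called by limma in either direction (0% of all tested genes were called in either direction), and the same held with the block. At an unadjusted p under 0.05, 7 genes had a departure above 0 and 0 below, beside 2.01% and 0.992% of all tested genes. The largest departures were EXO1 at 0.58 (SE 0.13, unadjusted p = 0.00104), MSH6 at 0.54 (95% confidence interval 0.22 to 0.87), USP1 at 0.42, UNG at 0.41 and CHEK1 at 0.41, each with adjusted p = 1. A value above 0 here means that the combination lay higher than the sum of the separate changes. The untreated libraries enter the departure too, so an offset shared by them would shift it. The median departure of the 28 was 0.18, beside 0 over all tested genes.

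The combination was last compared with palbociclib, to see what ATRA changed in cells that also had palbociclib. NEIL3 (-0.49, SE 0.07, adjusted p = 0.00112) and PALB2 (-0.47, SE 0.07, adjusted p = 0.00109) fell and 0 of the 28 rose, against 6.49% lower and 5.36% higher among all tested genes, and the median of the 28 was 0.00. Their changes were close in size to those with ATRA alone, at -0.50 and -0.46, from libraries that these comparisons do not share. Without the treated libraries numbered 1, both kept their calls (NEIL3 -0.48, adjusted p = 0.0108, and PALB2 -0.49, adjusted p = 0.00689) and LIG4 was added (-0.26, adjusted p = 0.00237). With the block, MSH6 was also lower (-0.25, adjusted p = 0.0492), and RAD51AP1 (0.27, adjusted p = 0.00318) and CHEK2 (0.26, adjusted p = 0.0388) were higher, against 13.6% lower and 9.62% higher among all tested genes.

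By pathway, the falls with palbociclib lay mostly in recombination and the Fanconi anaemia pathway, with 4 of 6 tested genes in each (median log2 change -0.57 and -0.43). These pathways also hold the most tested genes, with EXO1 counted under recombination and USP1 under Fanconi anaemia. Among all tested genes 3.1% were lower. In the wider list described below, 4 of 13 tested recombination genes fell, 2 of 5 Fanconi anaemia genes and 8 of 11 checkpoint genes. In mismatch repair 1 of 3 fell, in base excision 1 of 2, and among the ATM and ATR checkpoint genes 1 of 3. None of the 4 end-joining genes, the 2 nucleotide excision genes or the 2 remaining tolerance genes, RAD18 and POLQ, was called, with medians of -0.10, 0.04 and -0.36. With ATRA the counts were 2 of 6 for recombination, 2 of 6 for Fanconi anaemia, 1 of 3 for mismatch repair, 1 of 3 for the checkpoint, both base excision genes, 0 of 2 for nucleotide excision, 1 of 4 for end joining and 1 of 2 for tolerance. Among all tested genes 11.7% were lower with ATRA. No difference between pathways was tested.

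**Figure D5:**
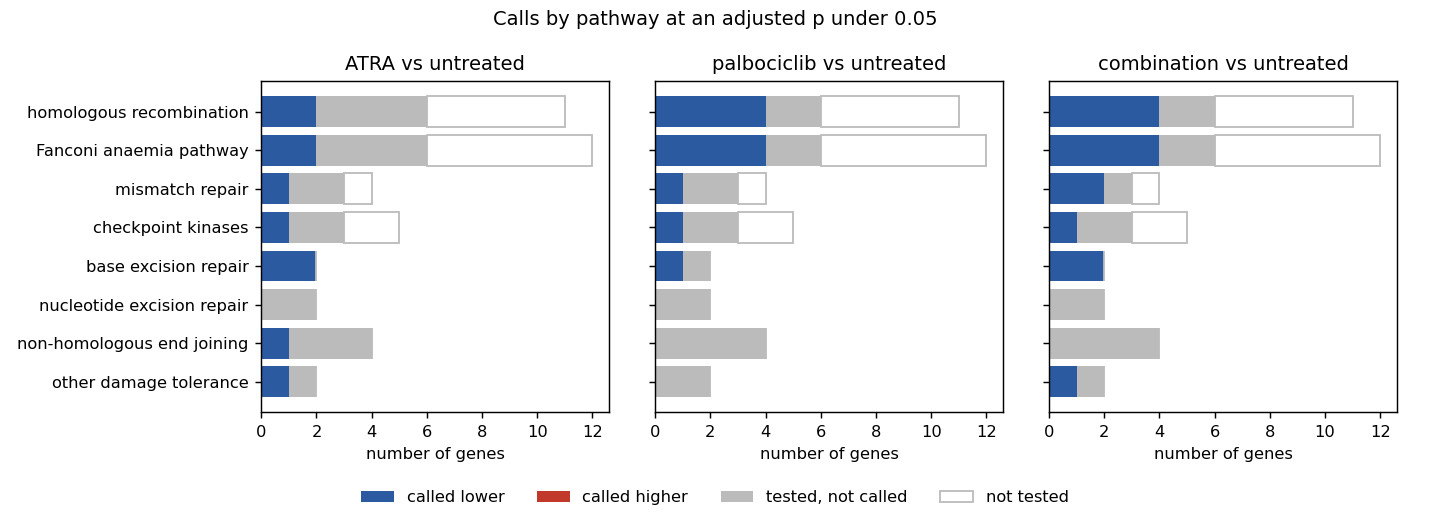
Number of the 42 genes (horizontal axis) in each of 8 pathways (vertical axis), for ATRA, palbociclib and both against untreated. Bars show genes called lower, tested and not called, or not tested. Recombination and Fanconi anaemia genes hold 8 of the 11 falls with palbociclib, and 14 genes were not tested because of their low level.

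The tested genes with no call against untreated were ATR, BRCA1, CHEK2, ERCC1, FANCD2, FANCE, PMS2, POLQ, PRKDC, XPC, XRCC5 and XRCC6. XRCC6 read 284, 277 and 290 RPKM untreated and 287, 257 and 273 with palbociclib, and XRCC5 147, 144 and 146 against 135, 137 and 132. PRKDC, with 29.07 kb of annotated exon, read 63, 58 and 60 RPKM untreated, 37, 58 and 63 with ATRA, 36, 54 and 60 with palbociclib and 35, 56 and 54 with both. Its first treated libraries lay far below the others, and without them its change was 0.00 with ATRA (adjusted p = 0.989) and -0.08 with palbociclib (adjusted p = 0.476). ATR, the apical kinase of the replication checkpoint, read 8, 7 and 7 RPKM untreated, 5, 6 and 7 with ATRA, 6, 7 and 8 with palbociclib and 5, 7 and 7 with both, with overlap between groups. CHEK2, the kinase downstream of ATM, read 6, 8 and 7 untreated, 8, 9 and 8 with ATRA, 6, 7 and 7 with palbociclib and 8 in each library given both. ERCC1, the non-catalytic partner of the nuclease that cuts beside bulky lesions, read 11 in each untreated library, 13, 11 and 12 with ATRA, 13, 12 and 12 with palbociclib and 13, 12 and 13 with both. ERCC1 and XPC overlap genes on the other strand over 28.6% and 24.6% of their exonic bases, and PMS2, CHEK2, FANCD2 and XRCC6 have near-identical copies elsewhere in the genome, so that their counts are uncertain.

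The 14 untested genes were the recombination genes BARD1, BRCA2, RAD51C, XRCC2 and XRCC3, the Fanconi anaemia genes FANCA, FANCB, FANCC, FANCF, FANCM and BRIP1, and MSH3, ATM and ATRIP. Single values ran from 0 to 6 RPKM. BRCA2, the mediator that loads the recombinase, lay just under the limit with a mean of 4.83 RPKM, and PMS2 just over it with 5.25. The group mean with palbociclib was below that of untreated cells for 11 of the 14, above for 2 and equal for 1. Among all tested genes, which lie at higher levels, 47.7% had a log2 change below 0 with palbociclib. No share was computed for genes as low as these, where 1 unit of rounding can set a mean, so the count is a description only. BARD1, the partner of BRCA1, read 6, 5 and 5 RPKM untreated, 4, 5 and 4 with ATRA, 3, 4 and 3 with palbociclib and 3, 4 and 3 with both, so that no palbociclib library reached an untreated one. BRIP1, a helicase that binds BRCA1, read 4, 3 and 3 RPKM untreated and 1, 2 and 2 with palbociclib. ATM, with 39.18 kb of annotated exon, read 4 in each untreated library and 3, 6 and 6 with ATRA, the first library again lowest.

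A wider list of 111 other genes of the same pathways, of which 60 were tested, was set beside these. Palbociclib lowered 17 and raised 0 of the 60 (median -0.13), against 3.1% of all tested genes lower and 0.879% higher. ATRA lowered 15 (25.0%) and raised 3, against 11.7% lower and 8.31% higher. The combination lowered 23 (38.3%) and raised 2, against 17.8% lower and 12.3% higher. Checkpoint genes held 8 of the 17 falls with palbociclib, among them CLSPN, which presents CHEK1 to ATR (-1.35, adjusted p = 0.000448), the phosphatase CDC25A (-0.93, adjusted p = 6.27e-05) and the fork protection factor TIPIN (-0.84, adjusted p = 0.00639). POLD3, a subunit of polymerase delta, changed by -0.99 (adjusted p = 0.000113) and the flap nuclease FEN1 by -0.77 (adjusted p = 0.000283). The resection factor RBBP8 (-0.70, adjusted p = 0.00372) and RMI1 of the BLM complex (-0.64, adjusted p = 0.00600) also fell. UBE2T, the E2 enzyme of the Fanconi anaemia pathway, went opposite ways, falling with palbociclib (-0.48, adjusted p = 0.00745) and rising with ATRA (0.38, adjusted p = 0.00727).

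The 6 subunits of the MCM replicative helicase, another set known to be transcribed before S phase, all fell with palbociclib (median -0.69), 5 of them fell with ATRA and 6 with both. Among all tested genes 3.1% were called lower with palbociclib, 11.7% with ATRA and 17.8% with both. Of 20 genes of mitosis, known to peak after S phase, only CDK1 fell with palbociclib (-0.37, adjusted p = 0.0418, and a median of -0.12 for the list), and 0 were called with ATRA or with both. At an unadjusted p under 0.05, 4 of the 20 mitosis genes were lower with palbociclib, 3 were higher with ATRA and 2 were lower with both. The matching shares of all tested genes were 10.2%, 13.6% and 22.9%.

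Promoter sequence was described for the members because many move together. RefSeq windows (GRCh38.p14) of 250 bases before to 50 bases after the start were matched for 39 of the 42 genes, with no entry for FANCI, XRCC5 and PRKDC. The core words of E2F sites, TTCCCGC (as in MSH6), TTCGCGC (as in EXO1), TTGGCGC (as in UNG) and the related TTGCCGC, were searched on both strands, a choice made after the sequences and a longer form had been seen. At least 1 word was found in 9 of 10 windows of genes called lower with palbociclib, in 7 of 15 of tested genes not called, in 8 of 14 of untested genes and in 13.0% of all 34796 windows. With a further T in front of each word, the counts were 2 of 10, 4 of 15 and 4 of 14, beside 3.31% of all windows. As the words were chosen after these sequences were seen, the counts do not test a difference between the sets of genes. Each member has 1 window, the first listed, while the share of all windows counts every distinct sequence. A match is a description of letters and not a bound site. The windows below, 30 bases each, are those of the genes with the largest falls, with the matching word in capitals. CHEK1, among the 6 largest, held no match and is not shown, and in UNG 2 words, 1 on each strand, overlap.
MSH6 (chr2:47783138-47783167, plus): tccccccagatTTCCCGCcagcaggagccg
UNG (chr12:109097578-109097607, plus): gcgcgggccgcTTGGCGCCAAttgctgacc
EXO1 (chr1:241848198-241848227, plus): aaggtcagcctTTCGCGCgctgtgtaggca
USP1 (chr1:62436410-62436439, plus): cgcgcactcgaGCGCCAAtgagagcggaag
RAD54L (chr1:46247628-46247657, plus): gcgcagcactaTTCCCGCctcttccttggg
The USP1 word is read on the opposite strand. The exons of RAD54L overlap genes on the other strand, among them LRRC41, over 19.9% of their bases. RAD54L has its word before the start, and in MSH6, EXO1 and USP1 the word begins within the first transcribed bases.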

How the data were processed

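HL-60 mRNA libraries (polyA selection, TruSeq) were made from 3 replicates of each treatment. Per the labels and the study's methods, the authors used HISAT2 for alignment (genome hg38), htseq-count at default settings for gene counts, and Degust with voom for analysis (versions not given in the sources used here). The deposited table holds RPKM that the authors rounded to whole numbers, handled here as a score. Counts were not recoverable from it, so no interval from depth was given. Groups came from the sample titles.

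Values were transformed as log2(RPKM + 0.1) and tested with limma 3.58.1 (R 4.3.3, empirical Bayes with a variance trend, 1 mean per group over 12 libraries, 8 residual degrees of freedom, two-sided), with Benjamini-Hochberg adjustment over the 7055 genes with a mean of at least 5 RPKM. All 42 genes were accounted for, and statistics were given for those called or, with none called, the 5 of largest change. From other pathway genes at most 3 called genes per pathway were named. Members and lists were chosen with earlier results of these data known. Exonic lengths, coordinates and overlaps came from GENCODE v44. Summaries used Python 3.11.15 and pandas 2.3.3. The fitting code was tested on simulated data.

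Replicate numbers came from the titles. Deviations of same-numbered libraries from their group means correlated at 0.501 to 0.92 between treated groups, each pair over 0.1, and at 0.0293 to 0.387 between untreated and treated groups, so numbers were taken to pair treated libraries only. Alternatives covered the pseudocount, the filter, rescaling, the block, the variance trend, the libraries fitted, the threshold and each library left out. Unless stated otherwise, the block was fitted over all 12 libraries. Correction for exonic length, leaving out the treated libraries numbered 1, and the comparison of palbociclib with ATRA were added after seeing the data.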

Additional observations from a re-analysis of the deposited data

How the results depend on the processing

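Single genes were followed under other settings only in comparisons where the main fit called them, mostly on the same libraries. Of 1162 such values, 1049 kept their direction and their side of the threshold, 113 lost the threshold and 0 reversed. Calls gained under other settings are not in these numbers. Counts are of genes called among the 28, lower unless stated. The replicate block gave 18 for palbociclib against untreated (8.55% of all tested genes lower, 603 against 219 without it), 5 for the combination against ATRA, 5 against palbociclib (2 higher) and 16 for palbociclib against ATRA (3 higher). Against untreated, where numbers were not taken to pair, the block added BRCA1 (adjusted p = 0.00638), FANCD2, FANCE, PMS1, NEIL3, PALB2 and RAD18 to the falls with palbociclib. The falls with the combination gained BRCA1, RAD51AP1, FANCE, XRCC5 and LIG4 (with ERCC1 higher). Under the block 26.2% of all tested genes were lower and 19.8% higher there. With ATRA it added RAD54L, BLM and PMS1 (CHEK2 higher), beside 21.1% lower and 14.6% higher, and no call was lost. These added calls rest on a pairing that was not taken to hold. Block with length correction gave 17 (1 higher), 5, 4 (2 higher) and 15 (2 higher), and length correction alone 0 for the combination against ATRA. Block on treated libraries only gave 7, 4 (2 higher) and 17 (4 higher) for the last 3 comparisons.

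A mean of at least 10 RPKM left 12 genes to test, with 4 called for ATRA, 6 for palbociclib, 6 for the combination, 0 and 1 for the combination against ATRA and palbociclib, and 5 (1 higher) for palbociclib against ATRA. At least 1 RPKM in 3 libraries, or no filter, gave 2 for the combination against ATRA, the addition being FANCA, whose rounded values were identical within groups. Fits of the compared groups only, with fewer libraries, gave 6 for palbociclib, 0 for the combination against ATRA and 4 for palbociclib against ATRA. At an adjusted p under 0.001 there were 3 for ATRA, 3 for palbociclib, 7 for the combination and 0 for each comparison between treated groups. With the block as well there were 5 for ATRA, 0 for the combination against ATRA and 4 for palbociclib against ATRA. Where no construction shows it, the cause was not tested.

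Leaving out 1 library gave 6 to 11 for ATRA, 8 to 11 for palbociclib, 13 to 16 for the combination, 0 to 1 and 2 to 3 for the combination against ATRA and palbociclib, 0 for the departure and 3 to 10 for palbociclib against ATRA. Without ATRA replicate 3 the count for ATRA was 6, and without it or combination replicate 3 the count against ATRA was 0. For palbociclib against ATRA it was 3 without palbociclib replicate 3, and 4 and 5 without ATRA replicates 2 and 3. Rounding to whole RPKM limits low genes, where 1 unit decides a value.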
